A study of Mus musculus with 6 samples.

Results

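The 43 genes described here drive and carry out mitosis, the division of the duplicated chromosomes between a pair of daughter cells. They were chosen as a fixed list of genes of the G2 and M phases of the cell cycle, of the kinetochore and of the mitotic spindle. The rule uses no measured value, though the list was drawn up with earlier results of these data known. They are 43 of the 54418 gene identifiers in the deposited counts. Each symbol matched 1 identifier. RNA was measured in cells sorted from mammary glands of 4-week-old female C57BL/6 mice, 3 of them *Glis2*+/+ (wild type, WT) and 3 *Glis2*-/- (mutant, KO), with 1 library per mouse. GLIS2 is a zinc finger transcription factor that is linked to the primary cilium, and the study asked how its loss changes gene expression in the gland during puberty. The cells were dissociated from the glands, stained for TER-119, CD31 and CD45, which mark blood and endothelial cells, and for CD24 and CD49f, which separate mammary epithelial populations, and sorted by flow cytometry straight into TRIzol. Every cell of a KO mouse carries the mutation, so cells outside the epithelium were mutant too. The structure of the mutant allele is not given in the sources used here.

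Entry into mitosis is set off by CDK1 bound to cyclin B, which the CDC25 phosphatases switch on and Polo and Aurora kinases help along. Motor proteins and microtubule-binding proteins then build the spindle, kinetochores attach the chromosomes to it, and the spindle checkpoint holds back the anaphase-promoting complex (APC/C) until every chromosome is attached. Most of these genes are silent in resting cells and are transcribed together late in the cell cycle, so that in a tissue their RNA is often read as a measure of how many cells are dividing, and the mammary epithelium of a pubertal mouse is known for its dividing ducts and end buds.

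The libraries held between 24996524 and 31393917 counts. Levels are given as normalized counts in CPM, that is counts scaled to a common library total after TMM normalization, always in the order replicate 1, 2 and 3 of a genotype. Log2 fold changes are KO over WT. Their standard error (SE) is the size of the fold change divided by the square root of F from edgeR's quasi-likelihood test. The 95% intervals were computed from this SE with a t quantile, with n = 3 per genotype throughout. *Glis2* itself was at 21.7, 23.2 and 19.6 CPM in the WT libraries and 10.1, 17.0 and 16.3 CPM in the KO libraries (log2 fold change -0.57 ± 0.22 SE; edgeR quasi-likelihood test, adjusted p = 0.906). The 3 KO libraries lay below the 3 WT libraries, but *Glis2* RNA was present in each KO library, and counts summed over the whole gene do not show whether it came from exons that the mutation spares. Of the 6 epithelial markers, all were detected in every library, and their summed level was 3482 to 5747 CPM in the WT and 3746 to 5613 CPM in the KO libraries. The gate that was sorted is not given in the sources used here. Markers of fibroblasts, a cell type outside the epithelium, were also present, all 7 in every library, at 2327 to 7787 CPM in the WT and 2612 to 5951 CPM in the KO libraries.

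Nearly all of the mitosis and spindle genes were lower in the mean of the KO libraries, but none passed the test. Of the 43 genes, 42 had a log2 fold change below 0 and 1, *Cdc25b*, lay above 0, while 48.4% of all 21236 genes tested lay below 0. The median log2 fold change over the 43 genes was -0.47, a level 27.7% lower, against a median of 0.01 over all genes tested. The single estimates ran from -0.64 for *Ccnb2* to 0.04 for *Cdc25b*, with standard errors between 0.12 and 0.30. A gene was called if its adjusted p was 0.05 or less and its log2 fold change reached 0.58 in either direction. By these limits edgeR's quasi-likelihood test with Benjamini-Hochberg adjustment called 0 of the 43 genes and 0 of the 21236 genes, a background of 0%. The adjusted p of the 43 genes lay between 0.906 and 0.991 by edgeR, and the smallest adjusted p of any gene tested was 0.392. DESeq2 with apeglm called 45 of all genes but 0 of the 43, with a smallest adjusted p among them of 0.190 for *Mki67*. At an unadjusted p under 0.05, edgeR gave 1130 of all genes, of which 494 were lower in the KO libraries, a background of 2.33%. Of the 43 mitosis genes 19 were below this limit, all of them lower. Both this count and the median moved when single libraries were left out. Without WT replicate 2 the count was 4, against 2.95% of all genes in that fit, and the median -0.27. Without WT replicate 3 the count was 35, against 1.83%, and the median -0.62. By DESeq2 24 were below it, all of them lower, against 1.98% of the 37074 genes to which DESeq2 gave a p. The 43 genes share their cells and vary together between mice, so these counts are not 43 separate observations.

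**Figure D1:**
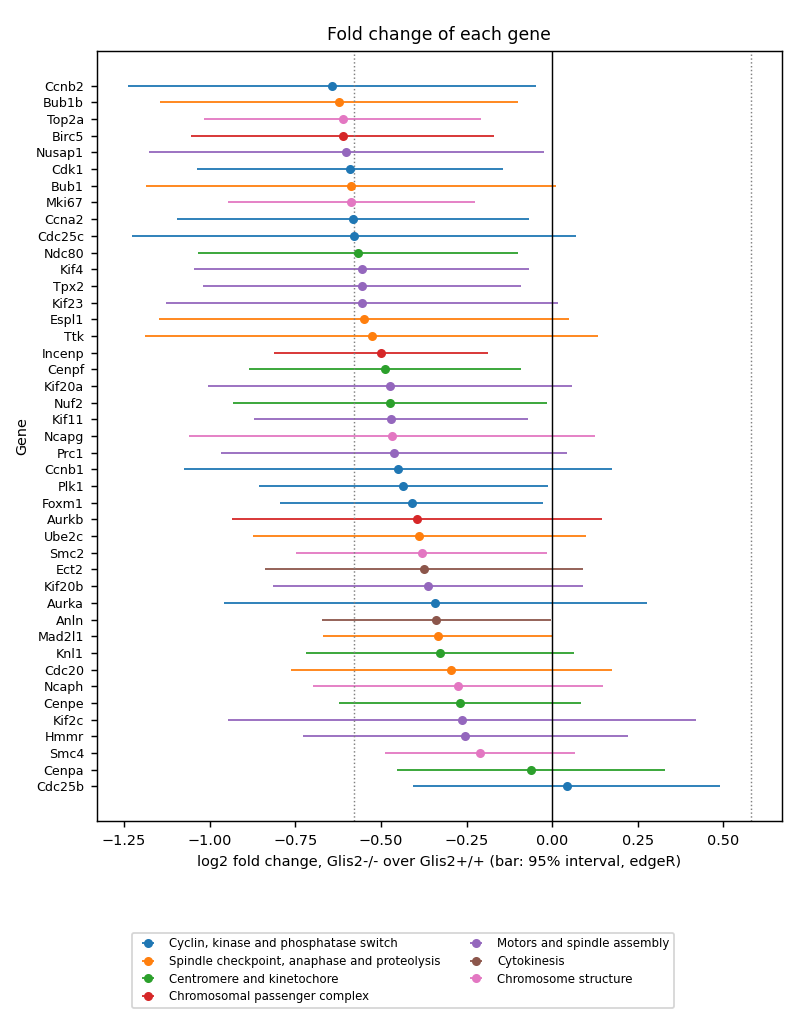
Log2 fold change (x axis, KO over WT) of each of the 43 genes (y axis), as points coloured by the role of the gene. Bars are the 95% interval computed from the edgeR test, and dotted lines mark a log2 fold change of 0.58 in either direction. 42 of the 43 points lie below 0, 9 lie at or beyond the lower dotted line, and the interval leaves out 0 for 19 genes.

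The spread between mice was wide next to this difference. In 7 of the 43 genes the 3 KO libraries all lay below the 3 WT libraries, which 5.5% of all genes tested also did. These were *Cdk1*, *Plk1*, *Ube2c*, *Birc5*, *Incenp*, *Top2a* and *Mki67*, and in the others the genotypes overlapped. In a bulk library, fewer dividing cells and less RNA of these genes in each cell cannot be told apart.

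Many genes of late mitosis carry a CHR element (cell cycle genes homology region), to which the MuvB complexes bind, together with CCAAT boxes, to which the factor NF-Y binds. RefSeq promoter windows of the GRCm38.p6 build, which reach from 250 bases before to 50 bases after the annotated start of a gene, were at hand for 35 of the 43 genes. *Ccna2*, *Cdc25c*, *Foxm1*, *Aurkb*, *Incenp*, *Kif20a*, *Tpx2* and *Smc4* had no window. CHR was searched as TTTGAA or TTCGAA and the CCAAT box as CCAAT, on both strands. TTCGAA reads the same on both strands and was counted once, and CCAAT matches that overlap on opposite strands, as a pair in *Ube2c* does, were counted separately. The 6 windows printed below, with the matches in capitals, were taken from those with a CHR match and at least 2 CCAAT matches. They are those of *Cdk1*, *Ube2c*, *Top2a* and *Mki67*, whose RNA did not overlap between the genotypes. *Ccnb2* and *Cdc20* were added as examples of such genes whose genotypes overlapped. *Plk1*, without overlap but with 1 match of each motif, is not printed. The windows lie at chr10:69352863-69353162 on the minus strand for *Cdk1*, chr2:164769679-164769978 on the plus strand for *Ube2c*, chr11:99024140-99024439 on the minus strand for *Top2a*, chr7:135716330-135716629 on the minus strand for *Mki67*, chr9:70421505-70421804 on the minus strand for *Ccnb2* and chr4:118437294-118437593 on the minus strand for *Cdc20*. Each is written from 5′ to 3′ on the strand of its gene.
Cdk1: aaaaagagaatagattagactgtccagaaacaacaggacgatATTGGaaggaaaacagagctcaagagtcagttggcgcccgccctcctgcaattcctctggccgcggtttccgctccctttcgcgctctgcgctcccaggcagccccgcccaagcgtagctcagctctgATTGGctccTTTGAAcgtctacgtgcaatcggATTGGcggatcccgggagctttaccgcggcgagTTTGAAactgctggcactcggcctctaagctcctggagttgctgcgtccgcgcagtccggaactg
Ube2c: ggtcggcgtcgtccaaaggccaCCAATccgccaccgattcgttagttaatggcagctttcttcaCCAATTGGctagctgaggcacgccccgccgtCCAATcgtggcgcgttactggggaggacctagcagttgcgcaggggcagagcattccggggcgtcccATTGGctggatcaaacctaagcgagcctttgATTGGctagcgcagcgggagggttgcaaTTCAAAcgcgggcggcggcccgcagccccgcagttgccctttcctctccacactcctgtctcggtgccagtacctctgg
Top2a: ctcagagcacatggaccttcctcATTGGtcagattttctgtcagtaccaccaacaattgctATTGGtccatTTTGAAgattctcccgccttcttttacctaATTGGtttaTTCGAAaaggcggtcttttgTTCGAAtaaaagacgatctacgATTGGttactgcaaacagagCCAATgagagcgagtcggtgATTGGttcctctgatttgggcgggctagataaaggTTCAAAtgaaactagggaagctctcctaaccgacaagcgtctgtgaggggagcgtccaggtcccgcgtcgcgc
Mki67: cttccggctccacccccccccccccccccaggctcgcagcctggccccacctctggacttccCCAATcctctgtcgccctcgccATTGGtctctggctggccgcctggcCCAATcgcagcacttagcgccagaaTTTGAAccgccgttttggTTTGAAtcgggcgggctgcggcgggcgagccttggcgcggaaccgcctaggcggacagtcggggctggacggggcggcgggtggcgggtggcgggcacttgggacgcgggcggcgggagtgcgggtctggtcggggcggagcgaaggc
Ccnb2: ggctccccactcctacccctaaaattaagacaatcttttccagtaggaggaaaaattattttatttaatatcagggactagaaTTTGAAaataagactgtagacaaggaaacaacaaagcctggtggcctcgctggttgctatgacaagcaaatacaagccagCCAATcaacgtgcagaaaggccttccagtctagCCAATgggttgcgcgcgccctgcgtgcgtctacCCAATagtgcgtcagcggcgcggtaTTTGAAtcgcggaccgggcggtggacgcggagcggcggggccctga
Cdc20: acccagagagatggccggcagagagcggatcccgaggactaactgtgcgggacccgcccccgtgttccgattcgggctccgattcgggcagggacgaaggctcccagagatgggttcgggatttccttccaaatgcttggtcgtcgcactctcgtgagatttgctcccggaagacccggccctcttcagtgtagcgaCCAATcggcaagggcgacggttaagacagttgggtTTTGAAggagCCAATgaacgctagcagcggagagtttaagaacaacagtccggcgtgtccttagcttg

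Of the 35 genes with a window, 28 (80.0%) held a CHR match, against 21.7% of the 27025 genes in the promoter table. A CCAAT match was found in 25 genes (71.4%), against 41.1% of all genes. Both motifs stood together in 23 genes (65.7%), against 8.61% of all genes, and a CHR match with at least 2 CCAAT matches was found in 14 (40.0%), against 2.68%. *Top2a* held the most, with 4 CHR and 6 CCAAT matches, and *Ube2c* held 1 CHR and 6 CCAAT matches. *Mad2l1*, *Nuf2*, *Birc5*, *Nusap1* and *Ncaph* held neither, so that of the 7 genes without overlap between the genotypes *Birc5* had no match while *Plk1* had 1 of each. An E2F motif, searched as TTTCCCGC or TTTGGCGC on both strands, was found only in *Ncapg*, in 2.86% of the 35 genes against 1.80% of all genes. The CHR matches sat close to the start of the gene, at a median position of 1.5 bases after it, and 78.6% of the 42 matches, in which the second windows of *Prc1* and *Ect2* are counted too, lay within 100 bases before or 50 after the start, against 42.4% of the CHR matches in all windows. The CCAAT matches had a median position of -75.5 bases. A match of these letters is not a binding site, and the members were chosen for their function, so these shares describe the list and were not tested.

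**Figure D2:**
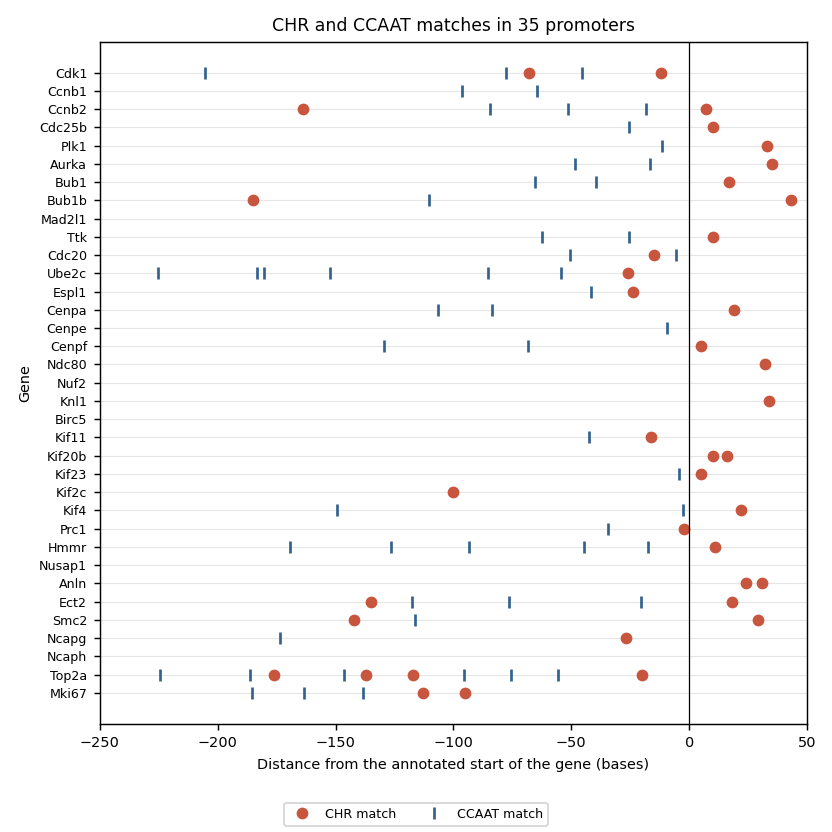
Distance of each CHR match (red circles) and CCAAT match (blue bars) from the annotated start of the gene in bases (x axis), for the 35 genes with a promoter window (y axis), with 1 window per gene. The CHR matches gather around the start, at a median of 5 bases over the 39 matches drawn, and the CCAAT matches lie before it, at a median of -76.5 over the 55 drawn.

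The first group by role held the kinases, cyclins and phosphatases that switch a cell into mitosis. Its median log2 fold change was -0.45, and 8 of its 9 genes were lower in the KO mean. By edgeR 5 of them had an unadjusted p under 0.05. Of all genes tested, 2.33% were lower at this limit, a background that holds for each of the role groups. The median of the group was -0.69 without WT replicate 3, -0.38 without WT replicate 2 and -0.41 without KO replicate 2. *Cdk1* (chr10:69335146-69352938, GRCm38, minus strand), the kinase at the centre of the switch, was at 37.0, 38.5 and 28.3 CPM in the WT libraries and 23.5, 18.1 and 27.5 CPM in the KO libraries. The KO libraries lay below the WT libraries without overlap, though WT replicate 3 and KO replicate 3 nearly touched (log2 fold change -0.59 ± 0.20 SE; edgeR adjusted p = 0.906). *Ccna2*, cyclin A, which acts from S phase into early mitosis, was at 58.7, 59.1 and 35.4 CPM in the WT libraries and 39.3, 26.8 and 36.4 CPM in the KO libraries. Here WT replicate 3 lay among the KO libraries (log2 fold change -0.58 ± 0.22 SE; edgeR adjusted p = 0.906), and the counts of the opposite-strand neighbour *Exosc9*, whose end overlaps *Ccna2*, came to 58.4% of those of *Ccna2*.

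The partners of CDK1 in mitosis are the B-type cyclins. *Ccnb1* was at 26.0, 28.6 and 14.9 CPM in the WT libraries and 16.4, 13.4 and 21.1 CPM in the KO libraries. WT replicate 3 was lower than 2 of the 3 KO libraries, and the interval held 0 (log2 fold change -0.45 ± 0.27 SE; 95% interval -1.07 to 0.18). *Ccnb2* was at 38.2, 50.4 and 26.2 CPM in the WT libraries and 23.4, 19.1 and 31.0 CPM in the KO libraries, the widest range of all 43 genes, with the highest library at 2.64 times the lowest. It also had the lowest fold change of the 43 in this fit (log2 fold change -0.64 ± 0.26 SE; edgeR adjusted p = 0.906), yet KO replicate 3 lay above WT replicate 3.

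Among the regulators, *Plk1*, the Polo kinase that takes part in nearly every step of mitosis, was at 20.4, 20.3 and 15.9 CPM in the WT libraries and 12.6, 13.4 and 15.9 CPM in the KO libraries. The genotypes did not overlap only in a strict sense, since the lowest WT and the highest KO library were equal to 3 digits (log2 fold change -0.43 ± 0.19 SE; edgeR adjusted p = 0.906). *Foxm1*, a transcription factor that drives late cell cycle genes, was at 48.9, 55.9 and 37.5 CPM in the WT libraries and 34.0, 32.8 and 40.4 CPM in the KO libraries. Its KO replicate 3 lay above WT replicate 3 (log2 fold change -0.41 ± 0.17 SE; edgeR adjusted p = 0.906). *Aurka*, the Aurora kinase of the spindle poles, had a log2 fold change of -0.34 ± 0.27 (SE), and *Cdc25c*, a phosphatase that activates CDK1, of -0.58 ± 0.28. The counts of *Gm3550*, which overlaps *Cdc25c* on the opposite strand, came to 42.2% of those of *Cdc25c*. *Cdc25b*, the related phosphatase that acts at the onset of mitosis, was the exception in direction, at 18.0, 15.9 and 12.5 CPM in the WT libraries and 16.0, 14.2 and 17.6 CPM in the KO libraries. Its range over the 6 libraries was the third narrowest of the 43, and its 95% interval of -0.40 to 0.49 lay on both sides of 0. Its sign turned under 5 of the 15 alternatives tried. The counts of *Spef1*, which overlaps *Cdc25b* on the opposite strand, came to 27.7% of those of *Cdc25b*.

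The genes of the spindle checkpoint and of anaphase had a median log2 fold change of -0.53, which became -0.24 without WT replicate 2. All 7 genes were lower in the KO mean, but only *Bub1b* had an unadjusted p under 0.05. *Bub1b* encodes BUBR1, a part of the complex that holds back the APC/C, and was at 85.4, 91.9 and 52.1 CPM in the WT libraries and 47.0, 41.0 and 61.1 CPM in the KO libraries. WT replicates 1 and 2 stood well above the rest, while WT replicate 3 lay inside the KO range (log2 fold change -0.62 ± 0.23 SE; edgeR adjusted p = 0.906). *Cdc20*, the activator of the APC/C that the checkpoint captures, was at 29.6, 32.3 and 20.4 CPM in the WT libraries and 21.2, 19.8 and 26.2 CPM in the KO libraries. Its genotypes overlapped, with WT replicate 3 lower than KO replicates 1 and 3 (log2 fold change -0.29 ± 0.20, 95% interval -0.76 to 0.17). The counts of *Elovl1*, which overlaps *Cdc20* on the opposite strand, came to 91.2% of those of *Cdc20*. The kit keeps the strand of the RNA, but whether the counting used it is not given in the sources used here.

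*Ube2c*, the ubiquitin-conjugating enzyme that works with the APC/C, was at 19.4, 28.5 and 17.0 CPM in the WT libraries and 16.9, 16.1 and 16.7 CPM in the KO libraries. The 3 KO libraries were nearly equal and just below the lowest WT library, and WT replicate 2 stood apart from the other 2 WT libraries (log2 fold change -0.39 ± 0.21 SE; edgeR adjusted p = 0.920). Without that library the log2 fold change of *Ube2c* was -0.14. In the remaining checkpoint genes the genotypes overlapped. *Bub1*, a checkpoint kinase at the kinetochore, had a log2 fold change of -0.59 ± 0.26 (SE) and the third widest range, with 17.7, 26.3 and 17.0 CPM in the WT libraries and 12.3, 10.4 and 18.0 CPM in the KO libraries. *Ttk*, the kinase that starts checkpoint signalling, had -0.53 ± 0.29, with WT replicate 2 alone at 25.2 CPM and WT replicate 3 the lowest of the 6 libraries at 10.8 CPM. Without WT replicate 2 the estimate for *Ttk* was -0.18. *Espl1*, separase, which cuts the cohesin between sister chromatids, had -0.55 ± 0.26, and *Mad2l1*, MAD2, had -0.33 ± 0.15. *Mad2l1* stood apart in that its WT replicate 3, at 56.8 CPM, was close to its highest library, and its WT replicate 1, at 42.0 CPM, was the one that overlapped with the KO libraries.

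The centromere and kinetochore genes had a median log2 fold change of -0.40, or -0.27 without WT replicate 2. By edgeR 3 of the 6, *Cenpf*, *Ndc80* and *Nuf2*, had an unadjusted p under 0.05. *Cenpa*, the histone H3 variant that marks the centromere, was at 33.1, 31.7 and 23.6 CPM in the WT libraries and 30.7, 24.6 and 29.4 CPM in the KO libraries. This was the narrowest range of all 43 genes, with the highest library at 1.40 times the lowest, and the KO libraries lay within the range of the WT libraries (log2 fold change -0.06 ± 0.17, 95% interval -0.45 to 0.33). Its sign turned when WT replicate 1 or KO replicate 2 was left out. *Ndc80*, the subunit that binds microtubules at the outer kinetochore, was at 31.4, 37.6 and 24.0 CPM in the WT libraries and 17.4, 20.8 and 24.5 CPM in the KO libraries. Only KO replicate 3 reached above the lowest WT library (log2 fold change -0.57 ± 0.20 SE; edgeR adjusted p = 0.906). *Nuf2*, which pairs with NDC80 in the same complex, had a close value of -0.47 ± 0.20. *Cenpf*, a large protein of the outer kinetochore, had -0.49 ± 0.17, *Knl1*, the scaffold on which checkpoint proteins gather, -0.33 ± 0.17, and *Cenpe*, a kinetochore motor, -0.27 ± 0.15.

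The chromosomal passenger complex, which corrects faulty attachments and then guides cytokinesis, was covered by 3 genes with a median of -0.50. Without WT replicate 2 this median was -0.36. *Incenp*, its scaffold (chr19:9872296-9899551, GRCm38, minus strand), was at 112, 137 and 98.7 CPM in the WT libraries and 76.5, 80.8 and 88.9 CPM in the KO libraries. The genotypes did not overlap, and its unadjusted p of 0.0059 was the second smallest among the 43 genes (log2 fold change -0.50 ± 0.14 SE; edgeR adjusted p = 0.906). *Birc5*, survivin, was at 28.8, 32.2 and 20.3 CPM in the WT libraries and 17.3, 18.8 and 17.1 CPM in the KO libraries. Its KO libraries lay close together and below every WT library (log2 fold change -0.61 ± 0.19 SE; edgeR adjusted p = 0.906). *Aurkb*, the kinase of the complex, was at 16.9, 19.04 and 12.2 CPM in the WT libraries and 13.8, 9.51 and 13.3 CPM in the KO libraries. In contrast to its partners its genotypes overlapped, with WT replicate 3 below KO replicates 1 and 3, and its 95% interval ran from -0.94 to 0.15.

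The 10 motor and spindle assembly genes were all lower in the KO mean, with a median log2 fold change of -0.47 and with 4, *Kif11*, *Kif4*, *Tpx2* and *Nusap1*, at an unadjusted p under 0.05. Without WT replicate 2 this median was -0.25. *Kif11*, the motor that pushes the spindle poles apart, was at 77.0, 103 and 66.1 CPM in the WT libraries and 57.2, 52.7 and 67.5 CPM in the KO libraries. KO replicate 3 lay just above WT replicate 3 (log2 fold change -0.47 ± 0.18 SE; edgeR adjusted p = 0.906), and a processed pseudogene that overlaps *Kif11* on the same strand held 5.25% as many counts. *Prc1*, which bundles the microtubules of the central spindle, was at 77.6, 108 and 59.1 CPM in the WT libraries and 62.4, 48.3 and 67.4 CPM in the KO libraries. Here 2 KO libraries lay above WT replicate 3, and the 95% interval of -0.97 to 0.04 held 0. *Kif23*, a motor of the same central spindle, had the second widest range, at 73.7, 102 and 51.7 CPM in the WT libraries and 53.5, 39.5 and 61.6 CPM in the KO libraries, and a log2 fold change of -0.55 ± 0.25 (SE).

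In the other spindle genes the genotypes overlapped as well. *Tpx2*, which activates Aurora A on the spindle, had a log2 fold change of -0.55 ± 0.20 (SE), *Nusap1*, a microtubule-binding protein, -0.60 ± 0.25, and *Kif4*, a chromosome-bound motor, -0.56 ± 0.21. The counts of *Pdzd11*, which overlaps *Kif4* on the opposite strand, came to 25.2% of those of *Kif4*. *Kif20a*, a motor of the late spindle, had -0.47 ± 0.23, and the counts of *Cdc23*, which overlaps it on the opposite strand, came to 106.9% of its own. *Kif20b* had -0.36 ± 0.20, *Hmmr*, a spindle pole protein, -0.25 ± 0.21, and *Kif2c*, which takes microtubules apart at centromeres, -0.26 ± 0.30. *Kif2c* had the largest standard error of the 43 genes, and its KO replicate 3 at 18.7 CPM was close to its WT replicate 1 at 19.7 CPM. Of the 2 genes of cytokinesis, *Anln*, which links actin and septins in the contractile ring, had -0.34 ± 0.15 and *Ect2*, the exchange factor that activates RhoA at the cleavage furrow, -0.37 ± 0.20.

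The last group, genes of chromosome structure, held *Mki67*, which had the most counts of the 43 genes, but also less abundant RNAs such as that of *Ncapg*. The median of the group was -0.42, with 3 of 6 genes at an unadjusted p under 0.05 by edgeR. This median was -0.27 without KO replicate 2 and -0.29 without WT replicate 2. *Mki67* (chr7:135689784-135716361, GRCm38, minus strand), which encodes the proliferation marker Ki-67 that coats mitotic chromosomes, was at 924, 1086 and 727 CPM in the WT libraries and 551, 568 and 705 CPM in the KO libraries. The KO libraries lay below the WT libraries without overlap, and its unadjusted p of 0.0053 was the smallest of the 43 (log2 fold change -0.59 ± 0.16 SE; edgeR adjusted p = 0.906). *Top2a* (chr11:98992943-99024189, GRCm38, minus strand), the topoisomerase that untangles sister chromatids, was at 237, 318 and 221 CPM in the WT libraries and 163, 140.3 and 205 CPM in the KO libraries. It did not overlap between the genotypes either, although WT replicate 3 and KO replicate 3 lay close together (log2 fold change -0.61 ± 0.18 SE; edgeR adjusted p = 0.906). The condensin core subunit *Smc4* was at 229, 243 and 196 CPM in the WT libraries and 193, 171 and 213 CPM in the KO libraries. Its range was the second narrowest of the 43 and the genotypes overlapped (log2 fold change -0.21 ± 0.12, 95% interval -0.49 to 0.07). Its partner in condensin, *Smc2*, had -0.38 ± 0.16, and the condensin I subunits *Ncapg* and *Ncaph* had -0.47 ± 0.26 and -0.28 ± 0.19. The gene *Lcorl*, on the strand opposite to *Ncapg*, held 121.7% as many counts as *Ncapg*.

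Seen library by library, the 43 genes moved together, and a large part of their spread lay within a genotype. WT replicate 2 was the highest library for 38 genes and WT replicate 1 for the other 5. KO replicate 2 was the lowest for 26 genes, KO replicate 1 for 9, WT replicate 3 for 5 and KO replicate 3 for 3. The summed level of the 43 genes was 3405, 4050.2 and 2688 CPM in the WT libraries and 2350.1, 2187 and 2774 CPM in the KO libraries. WT replicate 3 thus lay below KO replicate 3 in the sum, and it did so for 31 of the 43 genes. WT replicates 1 and 2 both lay above all KO libraries for 39 genes, whereas WT replicate 3 lay below at least 1 KO library for 35.

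The differences inside a genotype were of the same order as the difference between the genotypes. WT replicate 2 exceeded WT replicate 3 in 43 of 43 genes with a median ratio of 1.55, and WT replicate 1 exceeded it in 41 with a median ratio of 1.31. Within the KO group, replicate 3 exceeded replicate 2 in 40 genes with a median ratio of 1.31. Over all 6 libraries the ratio of the highest to the lowest ran from 1.40 to 2.64, with a median of 2.00. Without WT replicate 2 the log2 fold change of 25 of the 43 genes was over 1.5 times smaller in size, and without KO replicate 2 that of 10. Leaving out KO libraries or WT replicate 1 also moved the number of the 43 genes lower at an unadjusted p under 0.05, which was 6 without KO replicate 2 (background 2.21%), 8 without KO replicate 1 (1.68%), 11 without WT replicate 1 (2.39%) and 26 without KO replicate 3 (3.33%). With any 1 of the 6 libraries left out edgeR called 0 of the 43 genes.

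**Figure D3:**
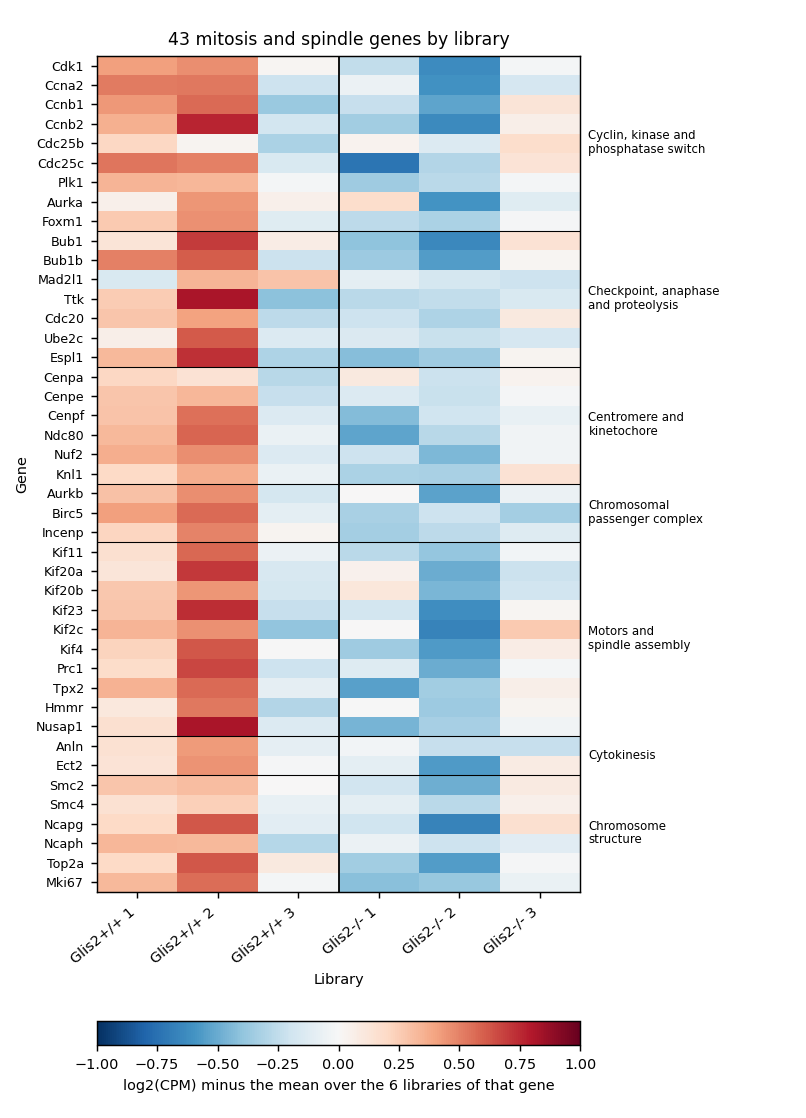
Log2 CPM of each of the 43 genes (y axis, grouped by role) in each library (x axis), as the difference from the mean of that gene over the 6 libraries, from -1 (blue) to 1 (red). WT replicate 2 is the highest library for 38 genes and KO replicate 2 the lowest for 26, and WT replicate 3 resembles KO replicate 3, above which it lies in 12 genes.

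Levels can be compared between genes only per length of transcript, for which the deposited TPM values were used, a unit in which the counts are divided by transcript length and scaled to a common sum. Over the medians of the 6 libraries, *Smc4* was the highest at 20.5 TPM, followed by *Mki67* at 16.9, *Incenp* at 15.5, *Top2a* at 11.2, *Kif23* at 10.3, *Cdk1* at 9.44 and *Prc1* at 9.27 TPM, and *Ttk* was the lowest at 1.08 TPM, with 3.25 TPM in the middle of the 43 genes. *Mki67* had by far the most counts but not the highest level per length. Neighbours in this order overlapped: *Smc4* ran from 13.7 to 23.9 TPM and *Mki67* from 11.4 to 27.6 TPM. A single RNA gene, *Gm23935*, took up 83.0% to 85.7% of the summed TPM, depending on the library, and only 3.09% to 3.92% of the counts. On the TPM scale the KO libraries lay below the WT libraries for 22 of the 43 genes instead of 7, but so did 10.6% of all genes tested, and in limma on log2(TPM + 1) the median of all genes moved to -0.06.

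**Figure D4:**
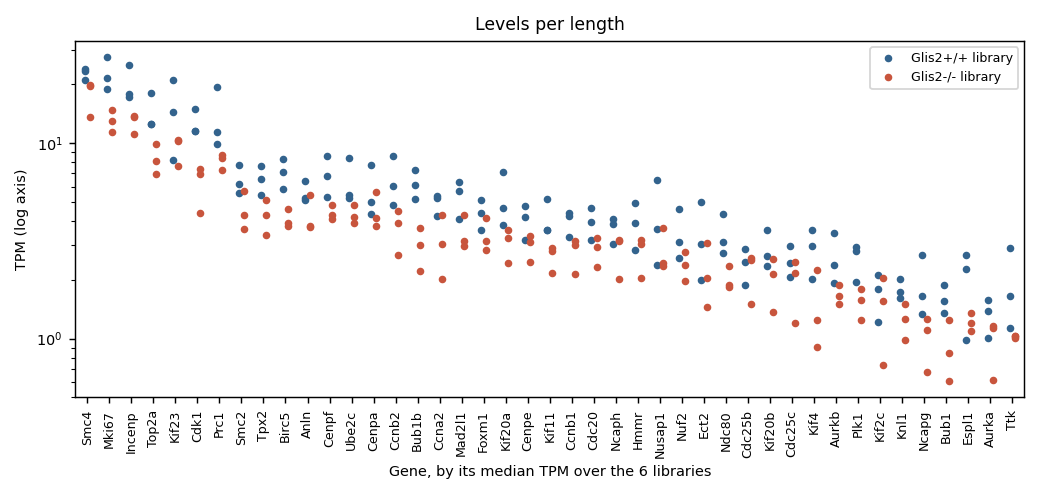
TPM (y axis, log scale) of each of the 43 genes in the 3 WT (blue) and 3 KO (red) libraries, ordered by the median over the 6 libraries (x axis). The medians run from 20.5 TPM for *Smc4* to 1.08 TPM for *Ttk*, and the libraries of neighbouring genes overlap.

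A second list of 72 mitosis genes outside the 43 lay mostly in the same direction. All 72 were tested, and 65 were lower in the KO mean, against 48.4% of all genes tested. At an unadjusted p under 0.05 by edgeR 18 were lower, against 2.33% of all genes tested. The median log2 fold change was -0.38, or -0.20 without WT replicate 2. The 72 genes were measured in the same libraries as the 43, so they are not a separate observation. None was called by edgeR (0 of 72). The smallest unadjusted p among them belonged to *Cit*, citron kinase, which acts in cytokinesis, at 68.8, 72.7 and 50.9 CPM in the WT libraries and 39.6, 42.0 and 47.8 CPM in the KO libraries. The genotypes did not overlap (log2 fold change -0.57 ± 0.16 SE; edgeR adjusted p = 0.906). *Ncapg2*, a condensin II subunit, followed at -0.65 ± 0.18 (SE), also without overlap. In the other direction, *Ska2*, a microtubule-binding protein of the kinetochore, was at 10.1, 8.89 and 6.45 CPM in the WT libraries and 12.5, 10.4 and 12.5 CPM in the KO libraries, with all KO libraries above the WT libraries (log2 fold change 0.47 ± 0.23 SE; edgeR adjusted p = 0.906). *Nsl1*, another kinetochore gene, had 0.83 ± 0.52, from no more than 69 counts in a library.

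The subunits of the APC/C, which cells also hold outside mitosis, had no common direction, and the difference from the mitosis genes was not tested. Of 15 subunits and activators, 6 were lower and 9 higher in the KO mean, with a median log2 fold change of 0.04, and edgeR called 0 of them, with 0 at an unadjusted p under 0.05. The sign of this median depended on the setting. It was -0.10 in limma on log2(TPM + 1) with and without a filter and -0.21 on log2(TPM + 0.1), scales on which the median of all genes was below 0 too, and it was -0.013 without WT replicate 3 and -0.016 without KO replicate 2. *Anapc16* had a log2 fold change of 0.34 ± 0.19 and *Cdc27* of 0.16 ± 0.12, the latter turning to -0.0075 in limma on log2(TPM + 1), while *Anapc13* had -0.17 ± 0.16 and *Anapc10* -0.28 ± 0.27. In the promoter windows of 14 of them, 2 (14.3%) held a CHR match and 0 held both motifs, whereas of 59 of the other mitosis genes 61.0% held a CHR match and 49.2% both.

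Markers of cell types also varied between the libraries, and their part in the levels of the mitosis genes was not tested. The 7 fibroblast markers summed to 7448, 2327 and 7787 CPM in the WT libraries and 4299.8, 2612 and 5951 CPM in the KO libraries. WT replicate 2, with the highest mitosis sum, and KO replicate 2, with the lowest, had the lowest fibroblast sum of their genotype, and 6 of the 7 markers were lower in the KO mean, at a median log2 fold change of -0.41. The 6 basal markers summed to 4864, 4404 and 3727 CPM in the WT libraries and 5263, 5076 and 6105 CPM in the KO libraries. All 6 were higher in the KO mean, 4 at an unadjusted p under 0.05, against 2.99% of all genes tested that were higher at this limit, and edgeR called 0. The 9 luminal markers summed to 3759, 6121 and 5422 CPM in the WT libraries and 5612, 6608 and 3808 CPM in the KO libraries, with 8 of 9 higher in the KO mean and a median of 0.09.

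Markers of blood, vessel, fat and muscle cells were at lower levels than those of epithelial cells and fibroblasts. The 8 leukocyte markers together reached 18.4 to 34.5 CPM in the WT and 34.6 to 68.5 CPM in the KO libraries, with each KO sum above the WT sums. At an unadjusted p under 0.05 by edgeR, 3 were higher and 1 lower, against 2.99% and 2.33% of all genes tested. The 6 endothelial markers came to 124 to 649 CPM in the WT and 185 to 665 CPM in the KO libraries, the lowest sum again in WT replicate 2. The 5 red blood cell genes reached 7.35 to 21.5 CPM in the WT and 12.5 to 32.9 CPM in the KO libraries, the 4 adipocyte genes 6.02 to 20.3 CPM in the WT and 4.04 to 8.72 CPM in the KO libraries, and the 4 skeletal muscle genes 4.94 to 41.2 CPM in the WT and 8.44 to 11.6 CPM in the KO libraries. Of all these markers, *Lep*, *Cfd* and *Adipoq*, genes of adipocytes, were listed at 0 counts in 1 library each.

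**Figure D5:**
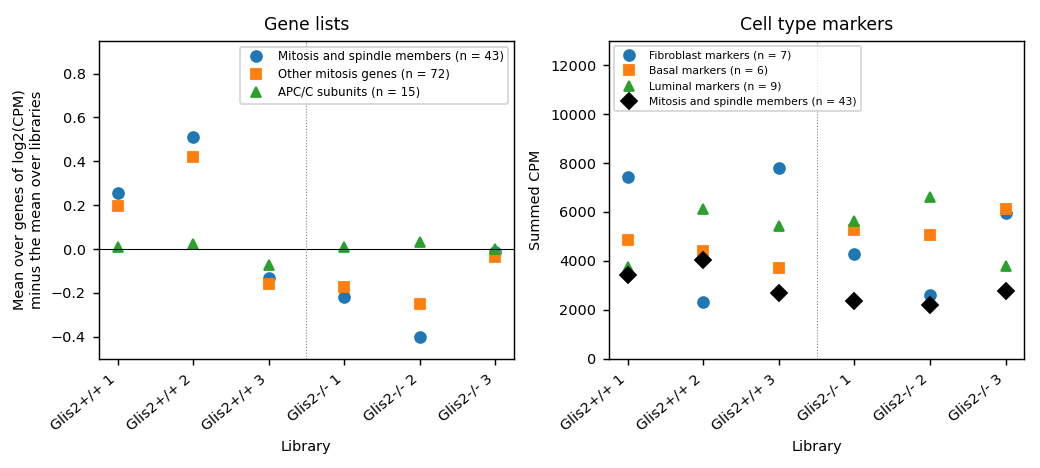
Left, mean over genes of log2 CPM minus the mean of each gene over the 6 libraries (y axis) by library (x axis), for the 43 genes, the 72 other mitosis genes and the 15 APC/C subunits. Right, summed CPM (y axis) of the fibroblast, basal and luminal markers and of the 43 genes by library (x axis). Both mitosis lists are highest in WT replicate 2 and lowest in KO replicate 2, the APC/C subunits stay near 0, and the fibroblast sum runs from 2327 to 7787 CPM.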

How the data were processed

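RNA-seq libraries of sorted mammary cells from 3 *Glis2*+/+ and 3 *Glis2*-/- mice, 1 per mouse, were compared. The authors quantified the reads with Salmon 1.2.1 on an mm10 transcriptome with the genome as decoy and summed them per gene with tximport. The deposited estimated counts are whole numbers without normalization. The deposited log2 values are log2(TPM + 1) by the authors. Of 54418 identifiers, 54166 were matched to GENCODE M21 (GRCm38) for names and positions.

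Genes were tested with edgeR 4.0.16 in R 4.3.3 (filterByExpr, TMM, quasi-likelihood test), without a replicate block, with p adjusted by Benjamini-Hochberg over 21236 genes and a log2 fold change of at least 0.58 required. The common biological coefficient of variation was 37.4%, and the median over the 43 genes was 20.3%. Each of the 43 genes had at least 152 counts in every library. Between any pair of libraries the chi-square per degree of freedom was 20.5 or more, so none was a duplicate. Alternatives used DESeq2 1.42.0 with apeglm 1.24.0, limma 3.58.1, other filters and scalings, a replicate block and 1 library left out at a time. The code was tested on simulated data.

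The members and lists were chosen with earlier results of these data known. Every value is given for 16 genes fixed by name, the 5 smallest unadjusted p, genes without overlap, and the 3 narrowest and 3 widest ranges. Other values were added after they were seen. From other lists, the 2 smallest p in each direction are named. Replicates are separate mice. Authors' comparisons and other experiments were not used here.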

Additional observations from a re-analysis of the deposited data

How the results depend on the processing

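Members called stayed at 0 in all 16 alternatives, and 41 of the 43 genes kept their direction in the 15 run for single genes. The number called over all genes was 40 without a filter on low counts, 45 by DESeq2 with apeglm, 48 by DESeq2 without shrinkage and 1 in limma on log2(TPM + 0.1). The smallest adjusted p among the 43 genes was 0.0723 by edgeR without the filter. With apeglm the median over the 43 genes shrank to -9.4e-06, against -0.48 by DESeq2 without shrinkage, which was added after seeing the data. Leaving out 1 library gave a median between -0.62 (without WT replicate 3) and -0.27 (without WT replicate 2), and between 4 and 35 genes at an unadjusted p under 0.05. It was 6 genes without KO replicate 2, 8 without KO replicate 1, 11 without WT replicate 1 and 26 without KO replicate 3. Genes without overlap numbered 22 on log2(TPM + 1). *Cdc25b* turned to -0.094 in limma on log2(TPM + 1) with and without a filter and to -0.14 on log2(TPM + 0.1), and, with 1 library left out, ran from -0.088 (without WT replicate 3; -0.051 without KO replicate 3) to 0.15 (without WT replicate 1). *Cenpa*, at -0.06 with all libraries, was -0.27 in limma on log2(TPM + 1) with and without a filter and -0.31 on log2(TPM + 0.1), and with 1 library left out ran from -0.20 (without WT replicate 3) to 0.022 (without KO replicate 2), with 0.013 without WT replicate 1. *Cdc27* turned to -0.0075 on log2(TPM + 1) with and without a filter and -0.0084 on log2(TPM + 0.1). The cause was not tested, except that shrinkage moves uncertain estimates toward 0 by construction. The median of all genes lay at -0.14 in limma on log2(TPM + 0.1). The deviations of same-numbered libraries of the genotypes were weakly correlated at most (correlations -0.02, 0.17 and 0.02). These values do not show that the numbers pair the mice, but they cannot exclude it, and the labels state no pairing. With the replicate block in edgeR, the median was -0.44 and 0 of the 43 genes were called. In that fit 13 of them had an unadjusted p under 0.05, all lower, against 1287 of all 21236 genes in either direction. The standard errors of 0.12 to 0.30 limit the size of a change that could be detected.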
